A study of Homo sapiens with 9 samples.

Results

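The genes described here were 4 ligands of the epidermal growth factor (EGF) family, AREG, EREG, HBEGF and TGFA, and 3 receptors of the ERBB family, EGFR, ERBB2 and ERBB3. They were taken by gene symbol from a deposited expression table of 16772 genes, in which all 7 had a row. EGF family ligands are made as membrane-anchored precursors and are released by cell surface proteases, after which they bind ERBB receptors on the same or on neighbouring cells. Ligand binding makes the receptors pair and phosphorylate each other, which starts the RAS-ERK and PI3K-AKT cascades. ERBB2 has no known ligand of its own and acts as a pairing partner, and ERBB3 has an impaired kinase and signals through its partners. In carcinoma cells of the prostate this system is known for autocrine growth signalling, and DU145 cells are a common model of it.

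RNA was sequenced from DU145, an established human prostate carcinoma cell line labelled as wild type, after 6 days of treatment in medium with serum. The groups were H93 at 20 µM, 500 nM SAHA (vorinostat, which inhibits histone deacetylases) and the solvent DMSO alone, with 3 libraries each. Both compounds were dissolved in DMSO and the medium was renewed daily. H93 is described in the title as UHRF1-targeted, UHRF1 being a protein of DNA methylation maintenance, and the design sets it against SAHA and against DMSO. Only 1 cell line and 1 dose of each compound were used, and the labels do not say whether the 3 libraries of a group came from separate cultures. The p-values therefore reflect only how these libraries vary, and that variation may be technical.

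The values are FPKM, read fragments scaled to transcript length and to library size, and each is relative to the rest of its library. Comparing levels between genes rests on the transcript lengths used, whose annotation was not given. The spread between libraries does not measure an error in those lengths. A lower share of all transcripts and less RNA per cell cannot be told apart on this scale. The FPKM summed to between 348656 and 355741 per library, 14910 to 15295 genes were above 0, and the relative read depth, seen in the steps of low values, lay between 0.875 and 1 of the deepest library. Absolute depth was unknown. All 6 epithelial markers were present, with a summed FPKM of 2125 to 2167 in H93, 2044 to 2124 in SAHA and 1896 to 1934 in DMSO libraries. Within this list KRT19 rose while EPCAM and CDH1 fell at least 2-fold after H93. After SAHA KRT19, EPCAM and CDH1 moved the same way, with log2 differences from DMSO of 0.94, -0.81 and -1.23. Of 5 markers of androgen-dependent prostate cells 3 had rows, and their sum lay between 2.85 and 3.78. The sums stayed at or under 1.13 for the 3 of 5 blood cell markers with a row. Most of this was CD14, which averaged 0.939 FPKM in H93, 0.807 in SAHA and 0.574 in DMSO libraries. PTPRC was at 0 in DMSO libraries and at or under 0.0179 in all libraries. For 4 endothelial markers the sums stayed at or under 0.397. For 5 fibroblast markers the sum was 3.69 to 4.22 in H93, 3.60 to 5.32 in SAHA and 2.31 to 3.06 in DMSO libraries, most of it COL1A1. The part of these low markers in the results was not tested.

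The 7 genes spanned a wide range of levels. After H93, AREG (amphiregulin, a ligand of EGFR) was the most abundant at 147 ± 2.13 FPKM (SD, n = 3), followed by EGFR at 47.5 ± 0.720. Next came EREG (epiregulin, which binds EGFR and ERBB4) at 39.5 ± 1.33 and HBEGF at 30.6 ± 0.631. TGFA stood at 17.1 ± 0.206, ERBB2 at 16.2 ± 0.113 and ERBB3 at 5.19 ± 0.327, and no 2 neighbours in this order overlapped in their libraries. After SAHA the order was AREG, EREG, EGFR, HBEGF, ERBB2, TGFA and ERBB3, and there EREG and EGFR overlapped. In DMSO libraries AREG was also the most abundant at 125 ± 2.38, and EREG was next at 52.6 ± 1.31. EGFR at 40.5 ± 0.606, ERBB2 at 23.2 ± 0.0772, TGFA at 12.0 ± 0.353, HBEGF at 10.1 ± 0.971 and ERBB3 at 6.87 ± 0.473 followed, again without overlap between neighbours. HBEGF thus held the fourth place after H93, against the sixth in DMSO libraries, and ERBB2 the sixth, against the fourth.

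**Figure D1:**
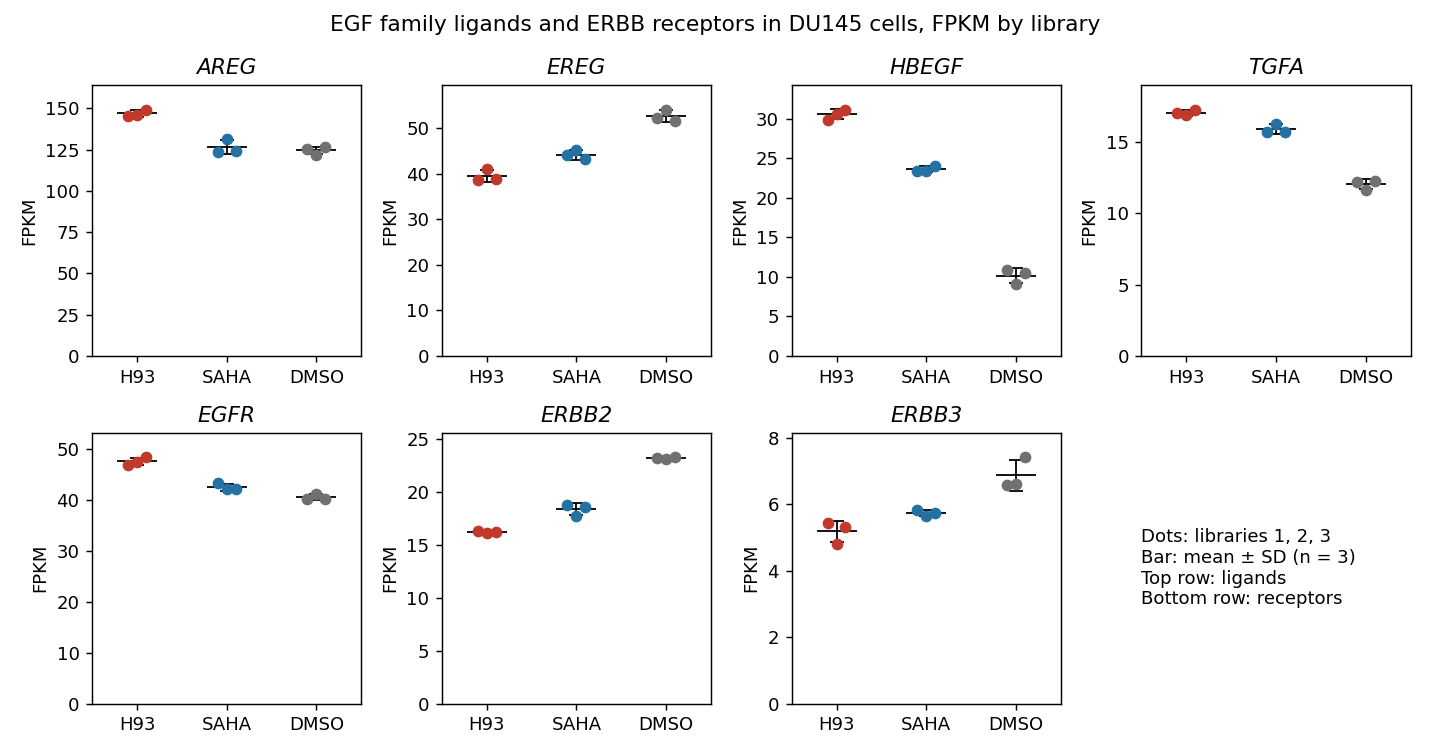
FPKM of each ligand (top row) and receptor (bottom row) in the H93, SAHA and DMSO libraries, with axes from 0, 1 dot per library and the mean ± SD (n = 3). HBEGF sits at 29.9 to 31.2 in H93, 23.4 to 24.1 in SAHA and 9.06 to 10.9 in DMSO libraries, and ERBB2 shows the opposite order.

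The comparison of H93 with the solvent is taken first. All 7 genes passed the test after H93: the ligands HBEGF, TGFA and AREG and the receptor EGFR rose, and the ligand EREG and the receptors ERBB2 and ERBB3 fell. The change was 3.01-fold on FPKM for HBEGF and lay between 0.699-fold for ERBB2 and 1.42-fold for TGFA among the other genes. Passing the test means an adjusted p under 0.05 in limma on log2(FPKM + 1), with Benjamini-Hochberg adjustment over 11525 kept genes. At that threshold 69.8% of all kept genes passed, 34.9% higher and 35.0% lower, so passing does not set these 7 genes apart. The groups did not overlap for any of the 7 genes, against 73.2% of all kept genes. A 2-fold call, which also needs a log2 difference of at least 1, was met by 2.28% of kept genes and by HBEGF alone among the 7.

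HBEGF encodes heparin-binding EGF-like growth factor, a ligand of EGFR and ERBB4 that is also the receptor of diphtheria toxin. It had 29.9, 30.6 and 31.2 FPKM in H93 libraries, 23.4, 23.4 and 24.1 in SAHA libraries and 10.9, 9.06 and 10.4 in DMSO libraries. Each H93 library was above each SAHA library, and each SAHA library was above each DMSO library. The log2 difference of H93 from DMSO was 1.51 (SE 0.0515, limma adjusted p = 1.61e-10), which ranked 44 from the top of 11525 genes. For SAHA it was 1.15 (SE 0.0515, limma adjusted p = 3.50e-09), which ranked 56 from the top. The gene lies on chromosome 5 from 140332843 to 140346631 on the minus strand (GRCh38, GENCODE release 29).

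The 3 kept genes whose profile over the 9 libraries lay closest to that of HBEGF were GADD45A, PLCXD2 and PDE4DIP, by Euclidean distance of log2 values set relative to the DMSO mean. The median distance over all kept genes was 3.31, and genes picked as closest lie under it by choice. GADD45A, a growth arrest gene induced by DNA damage, was at a distance of 0.208. It averaged 54.6 ± 2.93 FPKM in H93, 40.8 ± 1.21 in SAHA and 18.8 ± 1.20 in DMSO libraries (n = 3 each). PLCXD2 was at 0.233 and PDE4DIP at 0.268. No other of the 7 genes differed by 0.5 or more from DMSO in log2(FPKM + 1), which the choice of neighbours required. ERBB2 came near, at -0.49 for H93, and with a pseudocount of 0.1 it was at -0.51.

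TGFA, transforming growth factor alpha, is a high-affinity ligand of EGFR. It had 17.0, 16.9 and 17.3 FPKM in H93 libraries, 15.7, 16.3 and 15.7 in SAHA libraries and 12.2, 11.6 and 12.3 in DMSO libraries. Both treated groups lay above DMSO, and H93 libraries lay just above SAHA libraries. Against DMSO the log2 difference was 0.47 for H93 (SE 0.0329, limma adjusted p = 7.23e-08) and 0.38 for SAHA (SE 0.0329, limma adjusted p = 1.07e-06). TGFA lies on chromosome 2 from 70447280 to 70554193 on the minus strand.

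AREG had 145, 146 and 149 FPKM in H93 libraries, 124, 132 and 124 in SAHA libraries and 125, 122 and 126 in DMSO libraries. H93 libraries stood above all others, while SAHA and DMSO libraries overlapped. Its log2 difference from DMSO was 0.24 for H93 (SE 0.0274, limma adjusted p = 7.15e-06). For SAHA it was 0.02, with a 95% interval from -0.04 to 0.08 (limma adjusted p = 0.501), and without SAHA replicate 2 the estimate was -0.0060.

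EREG had 38.7, 41.0 and 38.8 FPKM in H93 libraries, 44.1, 45.2 and 43.1 in SAHA libraries and 52.3, 54.1 and 51.5 in DMSO libraries. It was the only ligand of the 4 that fell after H93, and the 3 groups did not overlap. The log2 difference from DMSO was -0.41 for H93 (SE 0.0312, limma adjusted p = 1.79e-07) and -0.25 for SAHA (SE 0.0312, limma adjusted p = 2.42e-05).

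AREG and EREG are neighbours on the plus strand of chromosome 4, EREG from 74365143 to 74388751 and AREG from 74445134 to 74455009 (GRCh38, GENCODE release 29), with 56.4 kb between them. Within each library the ratio of AREG to EREG was 3.57 to 3.85 after H93, 2.81 to 2.91 after SAHA and 2.25 to 2.45 in DMSO, with no overlap between groups. This ratio does not depend on how a library is scaled. Of 11 protein-coding genes within 500 kb of AREG, 10 had a row and 6 were kept. BTC, betacellulin, another EGF family ligand of this cluster, averaged 0.435 ± 0.102 FPKM in H93, 0.682 ± 0.0913 in SAHA and 0.880 ± 0.0915 in DMSO libraries and was under the filter. EPGN, epigen, the fourth family ligand there, was nearly absent at 0.0272 ± 0.0187, 0.0881 ± 0.0243 and 0.0107 ± 0.00931 FPKM in H93, SAHA and DMSO libraries.

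The more distant kept neighbours were the chemokine genes CXCL3 and CXCL2, the folate enzyme gene MTHFD2L and PARM1, a mucin-like membrane protein gene. After H93 CXCL3 (log2 difference 0.49) and PARM1 (0.59) rose and CXCL2 fell (-0.56), while MTHFD2L stood at 0.10 (limma adjusted p = 0.191). The kept genes of the region did not share a direction after H93, and the opposite changes of AREG and EREG stood beside others of both signs. Among all kept genes 34.9% rose and 35.0% fell after H93, so mixed signs do not set the region apart. Whether the region has a part in these changes was not tested.

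**Figure D2:**
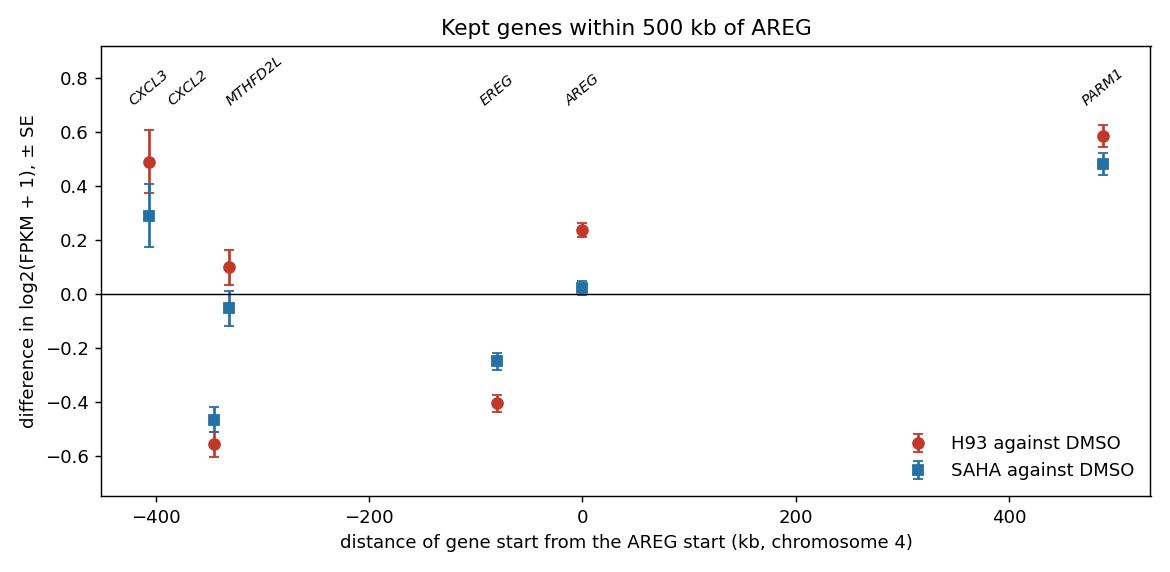
Difference in log2(FPKM + 1) from DMSO (± SE) for the 6 kept genes within 500 kb of AREG, against the distance of their starts from the AREG start in kb. EREG, with its start 80.0 kb before that of AREG, lies below 0 for both compounds, and AREG lies above 0 for H93.

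The 250 bases before the RefSeq start of AREG, EREG and HBEGF are shown because AREG and EREG are neighbours that changed in opposite directions after H93 and HBEGF changed most of the 7 genes (RefSeq promoters, GRCh38.p14). AREG is at chr4:74444886-74445135 (+), EREG at chr4:74364895-74365144 (+) and HBEGF at chr5:140346604-140346853 (-). Each runs 5′ to 3′ and ends at the base before the start. Capitals mark matches, on either strand, to the cyclic AMP response element TGACGTCA, the AP-1 motif TGANTCA, the TATA motif TATAAA, the GC box GGGCGG and CCAAT.
AREG: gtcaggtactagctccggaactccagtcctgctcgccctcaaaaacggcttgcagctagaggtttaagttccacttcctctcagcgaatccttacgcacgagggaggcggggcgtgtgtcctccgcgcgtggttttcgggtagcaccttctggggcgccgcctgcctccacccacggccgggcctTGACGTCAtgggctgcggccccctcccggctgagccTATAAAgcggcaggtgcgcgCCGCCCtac
EREG: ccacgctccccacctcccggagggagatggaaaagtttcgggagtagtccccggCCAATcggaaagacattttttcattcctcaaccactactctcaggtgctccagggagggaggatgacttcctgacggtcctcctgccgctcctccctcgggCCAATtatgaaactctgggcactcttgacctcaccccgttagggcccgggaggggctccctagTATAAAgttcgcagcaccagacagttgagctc
HBEGF: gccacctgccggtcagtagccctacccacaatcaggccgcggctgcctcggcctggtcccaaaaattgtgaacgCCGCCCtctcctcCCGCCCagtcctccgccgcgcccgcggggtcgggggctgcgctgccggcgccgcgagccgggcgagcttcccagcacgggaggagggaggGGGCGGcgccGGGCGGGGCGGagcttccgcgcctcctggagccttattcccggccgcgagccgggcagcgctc

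The AREG window held 1 cyclic AMP response element, beginning 65 bases before the start, which 1.65% of 35116 promoter windows in the RefSeq table also hold. AREG and EREG each held a TATA motif, beginning 29 and 32 bases before the start, found in 10.7% of all windows. HBEGF held neither motif but 5 matches to the GC box, 2 of which share a base. At least 1 GC box occurs in 42.6% of windows, and windows with 5 were not counted. The HBEGF window was 76.4% G or C, against a median of 58%. EREG held 2 CCAAT matches (at least 1 in 32.0% of windows), and AREG held 1 GC box. None of the 3 windows held the AP-1 motif, which occurs in 6.57% of windows. The CG dinucleotide occurred 23 times in the AREG window, 11 times in EREG and 33 times in HBEGF, against a median of 11. RefSeq promoters were found for 6 of the 7 genes. Such matches describe letters only and do not show binding.

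EGFR, the receptor of AREG, EREG, HBEGF and TGFA, had 46.9, 47.4 and 48.3 FPKM in H93 libraries, 43.3, 42.05 and 42.02 in SAHA libraries and 40.1, 41.2 and 40.1 in DMSO libraries. All H93 libraries were above all others, and SAHA libraries lay narrowly above DMSO libraries. The log2 difference from DMSO was 0.23 for H93 (SE 0.0253, limma adjusted p = 5.11e-06) and 0.07 for SAHA (SE 0.0253, limma adjusted p = 0.0376). The SAHA call was lost without DMSO replicate 1 (limma adjusted p = 0.104), DMSO replicate 3 (0.106), H93 replicate 2 (0.0513) or SAHA replicate 1 (0.122). EGFR lies on chromosome 7 from 55019021 to 55211628 on the plus strand.

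ERBB2, the ligandless receptor also known as HER2, had 16.3, 16.1 and 16.2 FPKM in H93 libraries, 18.8, 17.7 and 18.5 in SAHA libraries and 23.2, 23.1 and 23.2 in DMSO libraries. H93 libraries were lowest and DMSO libraries highest, with no overlap. Its log2 difference from DMSO was -0.49 for H93 (SE 0.0298, limma adjusted p = 2.00e-08) and -0.32 for SAHA (SE 0.0298, limma adjusted p = 1.78e-06). ERBB2 lies on chromosome 17 from 39687914 to 39730426 on the plus strand.

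ERBB3, a receptor of neuregulins and partner of ERBB2, had 5.43, 4.82 and 5.31 FPKM in H93 libraries, 5.83, 5.66 and 5.73 in SAHA libraries and 6.58, 6.62 and 7.42 in DMSO libraries. It had the same order of groups as ERBB2 but, in H93 and DMSO libraries, a wider relative spread. The log2 difference from DMSO was -0.35 for H93 (SE 0.0532, limma adjusted p = 8.18e-05) and -0.22 for SAHA (SE 0.0532, limma adjusted p = 0.00327). ERBB3 lies on chromosome 12 from 56076799 to 56103505 on the plus strand.

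After SAHA, relative to the solvent, HBEGF, TGFA and EGFR rose, EREG, ERBB2 and ERBB3 fell, and AREG did not pass. The share of all kept genes that passed for SAHA was 58.8%, 27.4% higher and 31.4% lower, against 6 of the 7 genes. HBEGF alone made the 2-fold call, as 1.12% of kept genes did. Groups did not overlap for 6 of the 7 genes and for 64.1% of all kept genes. Both comparisons use the same 3 DMSO libraries, so their likeness is not independent evidence.

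**Figure D3:**
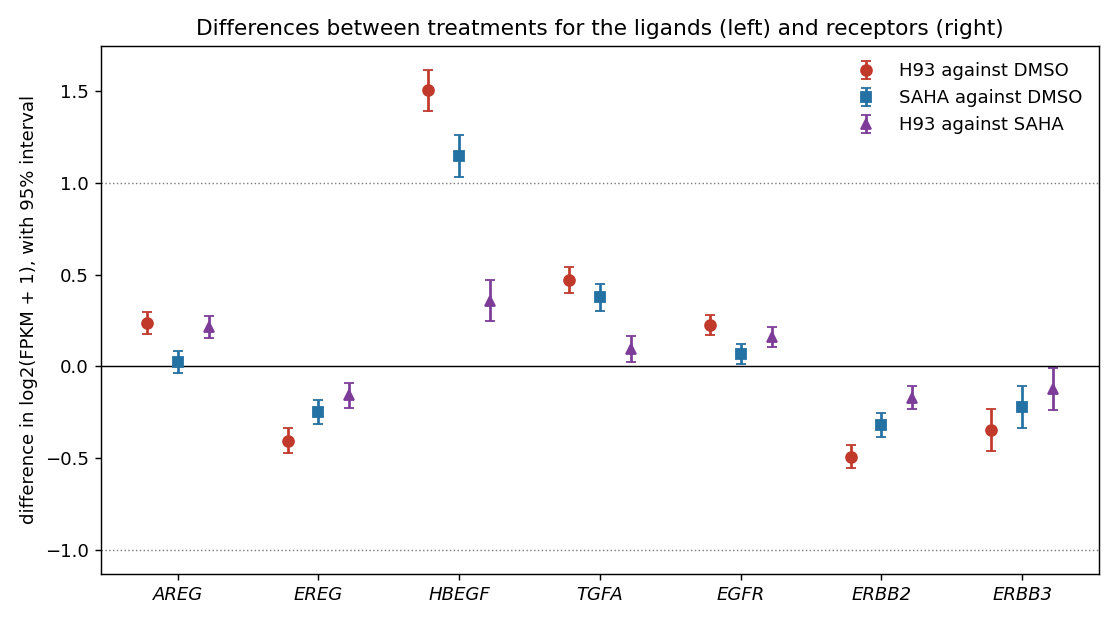
Differences in log2(FPKM + 1) with 95% intervals from limma for H93 against DMSO, SAHA against DMSO and H93 against SAHA, ligands first and receptors after them. Dotted lines mark a 2-fold change, which HBEGF passes against DMSO with both compounds (1.51 for H93 and 1.15 for SAHA).

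The third comparison set H93 directly against SAHA, at doses that differ (20 µM and 500 nM), so it compares these treatments and not the potency of the compounds. AREG, HBEGF, TGFA and EGFR were higher in H93, and EREG and ERBB2 were lower. That made 6 of 7 genes, where 31.5% of all kept genes passed, 17.6% higher and 13.9% lower. The 7 genes were chosen with earlier results of these data known. Their counts in this and the other comparisons are therefore not independent evidence. For HBEGF the log2 difference of H93 from SAHA was 0.36 (SE 0.0515, limma adjusted p = 0.000458). For AREG it was 0.21 (SE 0.0274, limma adjusted p = 0.000213). EGFR differed by 0.16 (limma adjusted p = 0.000774), EREG by -0.16 (limma adjusted p = 0.00309) and ERBB2 by -0.17 (limma adjusted p = 0.00144).

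ERBB3 did not pass between H93 and SAHA, at -0.12 with a 95% interval from -0.24 to -0.01 (limma adjusted p = 0.0932). TGFA passed narrowly at 0.09 (limma adjusted p = 0.0458). Its call was lost without H93 replicate 1 (limma adjusted p = 0.0921), 2 (0.0769) or 3 (0.119), SAHA replicate 1 (0.113) or 3 (0.117), or DMSO replicate 1 (0.0556) or 3 (0.0558). None of the 7 genes reached a 2-fold call here, which 0.0174% of kept genes did. The groups did not overlap for any of the 7 genes, against 44.4% of all kept genes, a count that the choice of genes limits in the same way.

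Summed over the 4 ligands, FPKM came to 234 ± 2.96 in H93, 210 ± 5.46 in SAHA and 199 ± 2.38 in DMSO libraries (SD, n = 3 each). Summed over the 3 receptors it came to 68.9 ± 0.795, 66.5 ± 1.24 and 70.5 ± 0.568 in H93, SAHA and DMSO libraries. The ligand sum was therefore higher in every H93 library than in every SAHA or DMSO library. The receptor sum was lowest in SAHA libraries and highest in DMSO libraries, with a narrow gap between H93 and DMSO. These sums weigh AREG and EGFR most, and no test was made on them.

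The make-up of both sums also differed. HBEGF took 13.1 ± 0.112% of the ligand sum in H93, 11.2 ± 0.418% in SAHA and 5.08 ± 0.430% in DMSO libraries. The share of EREG was 16.9 ± 0.548% in H93, 21.0 ± 0.268% in SAHA and 26.4 ± 0.964% in DMSO libraries. AREG held 62.8 ± 0.417%, 60.2 ± 0.542% and 62.5 ± 0.510% in H93, SAHA and DMSO libraries, so its share in H93 and DMSO libraries overlapped. The ratio of HBEGF to TGFA was 1.79 ± 0.0285 in H93, 1.49 ± 0.0489 in SAHA and 0.842 ± 0.0583 in DMSO libraries, so HBEGF was the more abundant after either compound and the scarcer in DMSO.

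Among the receptors the balance shifted to EGFR. It took 69.0 ± 0.578% of the receptor sum in H93, 63.8 ± 0.426% in SAHA and 57.4 ± 0.699% in DMSO libraries. ERBB2 held 23.5 ± 0.277% in H93, 27.6 ± 0.432% in SAHA and 32.9 ± 0.295% in DMSO libraries. The ratio of EGFR to ERBB2 was 2.94 ± 0.0542 after H93, 2.31 ± 0.0519 after SAHA and 1.75 ± 0.0314 in DMSO libraries, with no overlap. The ratio of ERBB2 to ERBB3 was 3.13 ± 0.182 in H93, 3.19 ± 0.0538 in SAHA and 3.38 ± 0.215 in DMSO libraries, and these groups overlapped.

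**Figure D4:**
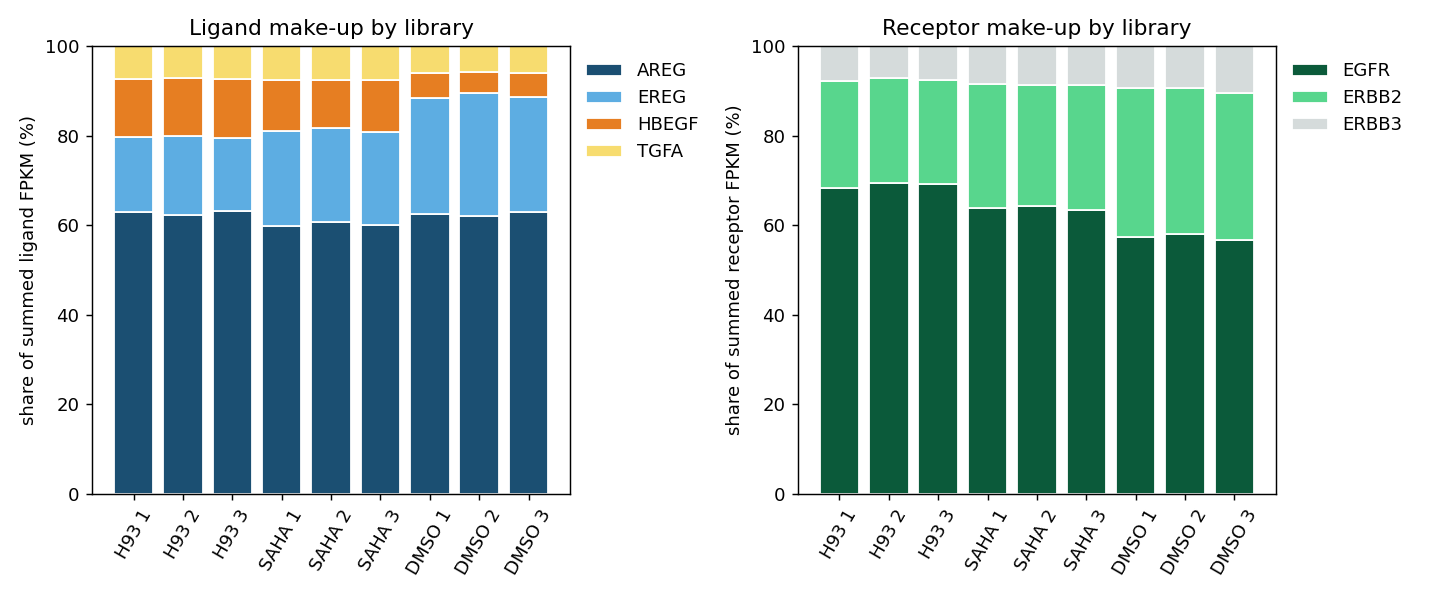
Share of each ligand in the summed ligand FPKM (left) and of each receptor in the summed receptor FPKM (right), in percent, with 1 bar per library and H93, SAHA and DMSO libraries from left to right. HBEGF widens to 13.1% in H93 against 5.08% in DMSO libraries, and EGFR to 69.0% against 57.4%.

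The other ligands and the fourth receptor were scarce. Of 8 such genes 7 had a row and 1 was kept. That gene was NRG2, neuregulin 2, a ligand of ERBB3 and ERBB4, which averaged 2.04 ± 0.115 FPKM in H93, 1.90 ± 0.0706 in SAHA and 1.23 ± 0.0747 in DMSO libraries. It rose after H93 (log2 difference 0.45, limma adjusted p = 1.25e-05) and after SAHA (0.38, limma adjusted p = 7.90e-05). EGF itself averaged 0.340 ± 0.102, 0.307 ± 0.0539 and 0.355 ± 0.113 FPKM in H93, SAHA and DMSO libraries. NRG4, a ligand of ERBB4, averaged 0.437 ± 0.0471, 0.465 ± 0.0224 and 0.569 ± 0.0271, and ERBB4 stayed at or under 0.0736 in all libraries. NRG1 averaged 0.288 ± 0.0171, 0.234 ± 0.0461 and 0.181 ± 0.0230 FPKM in H93, SAHA and DMSO libraries.

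Genes of ligand shedding and trafficking changed in both directions. Of 10 kept, 4 rose and 4 fell after H93, and 3 rose and 3 fell after SAHA, near the 69.8% and 58.8% of all kept genes that passed. The median log2 difference was 0.03 for H93 and -0.05 for SAHA, where all kept genes had medians of 0.0016 and -0.01. ADAM17, the main protease that releases AREG, HBEGF and TGFA, had 16.2 ± 0.298 FPKM in H93, 17.7 ± 0.519 in SAHA and 21.5 ± 0.582 in DMSO libraries. Its log2 difference from DMSO was -0.39 for H93 (limma adjusted p = 5.00e-07) and -0.27 for SAHA (limma adjusted p = 2.23e-05). FRMD8, which stabilises ADAM17 and its iRhom partners at the cell surface, rose after H93 (log2 difference 0.41) and after SAHA (0.15).

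CD9, a tetraspanin that associates with the HBEGF precursor, averaged 157 ± 0.980 FPKM in H93, 157 ± 2.79 in SAHA and 109 ± 1.23 in DMSO libraries, a log2 difference of 0.52 for each compound. The metalloprotease ADAM15 rose (log2 difference 0.54 for H93 and 0.31 for SAHA). NKD2, which escorts the TGFA precursor to the cell surface, fell (-0.46 and -0.34 for H93 and SAHA).

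Of 15 negative regulators of the receptors 7 rose and 2 fell after H93, and 5 rose and 4 fell after SAHA, with medians of 0.09 and 0.03. The 9 of 15 that passed in each comparison stand beside 69.8% of all kept genes for H93 and 58.8% for SAHA. ERRFI1, the feedback inhibitor of EGFR kinase, had 64.2 ± 0.697 FPKM in H93, 66.7 ± 0.968 in SAHA and 54.7 ± 0.330 in DMSO libraries. It rose after H93 (log2 difference 0.23) and after SAHA (0.28). The ubiquitin ligase gene CBL, which marks active EGFR for degradation, rose by 0.28 and 0.20 for H93 and SAHA, and its relative CBLC fell (-0.56 and -0.45). PTPRJ, a receptor phosphatase that acts on EGFR, fell (-0.76 and -0.55), whereas PTPRK, another such phosphatase, rose (0.53 and 0.27). LRIG1, an inhibitor of ERBB receptors, did not pass at 0.10 for H93 (limma adjusted p = 0.101) and 0.05 for SAHA (limma adjusted p = 0.459). RNF41, a ubiquitin ligase for ERBB3, rose after H93 (0.14) but did not pass for SAHA (0.03, limma adjusted p = 0.415). The difference of RNF41 between H93 and SAHA itself passed (0.11, limma adjusted p = 0.0243).

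Endocytosis and sorting genes, which carry active receptors to recycling or to lysosomes, rose in 12 of 15 cases after H93 and fell in 2, against 9 and 2 after SAHA. Of all kept genes 34.9% rose and 35.0% fell after H93, and 27.4% rose and 31.4% fell after SAHA. The medians of the list were 0.19 and 0.11. This list too was chosen with earlier results of these data known, so its direction is not independent evidence. The recycling GTPase gene RAB11A averaged 41.5 ± 1.32 FPKM in H93, 37.6 ± 0.845 in SAHA and 31.2 ± 0.817 in DMSO libraries. The early endosome gene RAB5A rose (0.35 and 0.25 for H93 and SAHA), as did the late endosome gene RAB7A (0.25 and 0.20) and the clathrin adaptor gene AP2A1 (0.36 and 0.14).

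Of 16 adaptor, RAS and ERK cascade genes 5 rose, 1 fell and 10 did not pass after H93, while 3 rose, 2 fell and 11 did not pass after SAHA. The share that passed was thus lower than among all kept genes, at 69.8% for H93 and 58.8% for SAHA. The medians of the list were 0.06 and -0.0043. MAP2K1, the ERK kinase MEK1, rose most in this list, at 42.0 ± 0.125 FPKM in H93, 39.2 ± 0.705 in SAHA and 32.2 ± 0.129 in DMSO libraries. The adaptor gene GRB2 rose by 0.19 and 0.14 on the log2 scale for H93 and SAHA.

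Of 13 PI3K, AKT, PLCG1, STAT3 and SRC genes 5 rose and 5 fell after H93, and 4 rose and 5 fell after SAHA, beside 69.8% and 58.8% of all kept genes that passed in either direction. The medians of the list were 0.03 and 0.04. GAB2, a docking protein that recruits PI3K, had 4.19 ± 0.221 FPKM in H93, 3.70 ± 0.0925 in SAHA and 1.96 ± 0.0556 in DMSO libraries. The tyrosine kinase gene SRC fell (-0.64 and -0.37 for H93 and SAHA).

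Transcripts used as a readout of MAPK pathway output moved mostly upward. Of 9 kept genes 7 rose and 1 fell after H93, and 6 rose and 1 fell after SAHA. Among all kept genes 34.9% rose and 35.0% fell after H93, and 27.4% rose and 31.4% fell after SAHA. The list holds genes already seen to rise in these data, so its direction is not independent evidence. The medians were 0.49 and 0.38, where all kept genes had 0.0016 and -0.01. SPRY4, a feedback inhibitor of receptor signalling, had 9.27 ± 0.252 FPKM in H93, 7.32 ± 0.411 in SAHA and 3.42 ± 0.0908 in DMSO libraries. DUSP6, a phosphatase of ERK, had 27.6 ± 1.29 in H93, 21.3 ± 0.271 in SAHA and 13.6 ± 0.978 in DMSO libraries. The ETS factor gene ETV4 rose (0.63 and 0.57 for H93 and SAHA), as did DUSP4 (0.73 and 0.38), the receptor gene EPHA2 (0.46 and 0.38) and the cyclin gene CCND1 (0.49 and 0.43). ETV5 rose after H93 (0.22) and did not pass for SAHA (0.06, limma adjusted p = 0.0870), and the difference of H93 from SAHA passed (0.16, limma adjusted p = 0.000966). SPRY2 did not pass for H93 (0.07, limma adjusted p = 0.277) or SAHA (0.02, limma adjusted p = 0.748). PHLDA1 fell with both compounds (-0.11 and -0.12). EPHA4 was under the filter.

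Between H93 and SAHA, 6 of the 9 kept MAPK output genes were higher in H93 and 0 were lower. That list holds genes already seen to rise in these data, so its direction here is not independent evidence either. Its largest differences were in DUSP4 and DUSP6 (0.36 each) and SPRY4 (0.30). Of the 15 endocytosis genes 5 were higher and 0 lower in H93 than in SAHA libraries, and of the 15 negative regulators 5 were higher and 1 was lower. Of all kept genes 17.6% were higher and 13.9% lower in this comparison, 31.5% in all. The share of endocytosis genes that passed in either direction was near this background, but in both lists those that passed were mostly higher in H93. Both lists were chosen with earlier results of these data known, so this direction is not independent evidence.

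**Figure D5:**
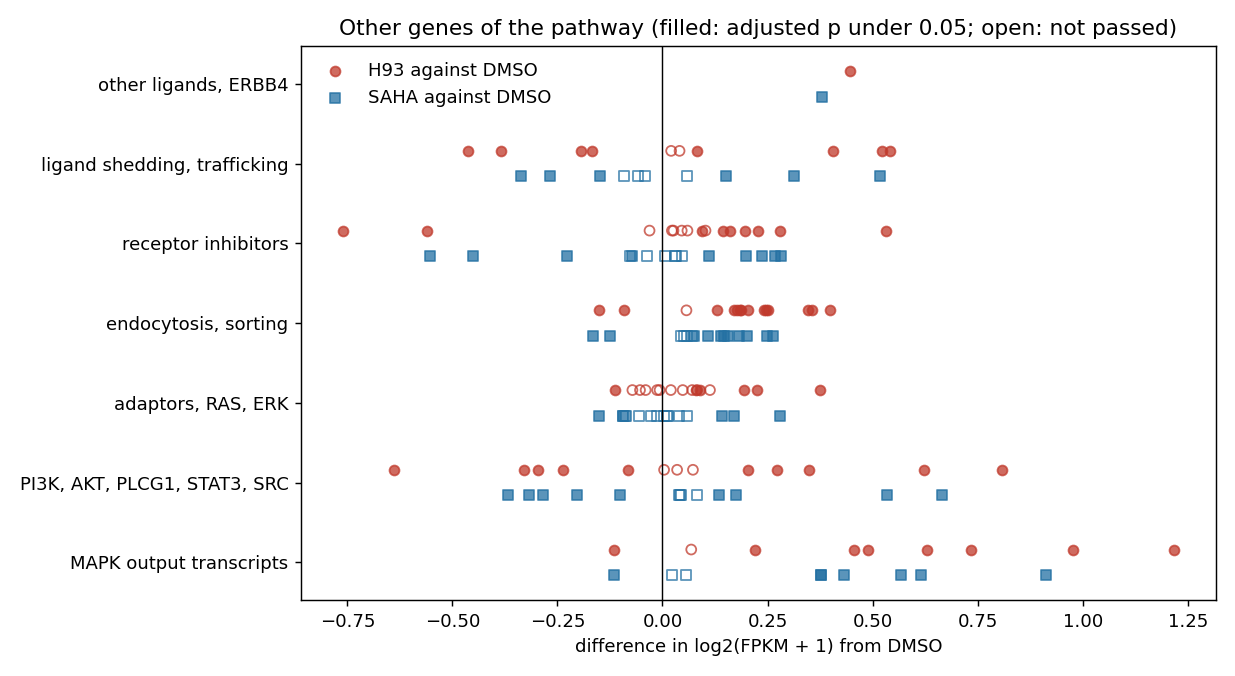
Difference in log2(FPKM + 1) from DMSO for the kept genes of 7 lists of pathway genes, with H93 as circles and SAHA as squares and filled symbols for genes that passed. The MAPK output transcripts lie mostly to the right of 0, with medians of 0.49 for H93 and 0.38 for SAHA, and the shedding genes lie on both sides.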

How the data were processed

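RNA-seq of 9 DU145 libraries was used as 1 table of FPKM per gene that the authors deposited. Cufflinks, HISAT2, Trimmomatic 0.36 and the build GRCh38.p13 are listed, without roles, per the submitters' processing notes. Annotation, strand setting and filters were not given in the sources used here, and per the labels the library kit was stranded. Columns were matched to samples by name, and groups came from the titles. Genes that reached an FPKM of 1 in 3 or more libraries were kept (11525 of 16772, with all 7 genes among them). Group means were fitted to log2(FPKM + 1) of all 9 libraries in limma 3.58.1 (R 4.3.3), using empirical Bayes with a mean-variance trend and two-sided tests, with Benjamini-Hochberg adjustment over kept genes. Such differences understate changes of low genes. The smallest p of an exact permutation test of 3 against 3 libraries is 0.1, so none is given. The procedure was also run on simulated data with independent noise and few changed genes. That setting is unlike these data, so the run does not check the calls made here.

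The 7 genes and all lists were chosen with earlier results of these data known, and the MAPK output list shares members with genes already seen to rise. The text names all genes of the lists of other ligands, negative regulators and MAPK output that it needs, and of other lists the 3 largest called differences of a comparison, apart from a few genes that are not reported here. For genes at least 0.5 from DMSO in log2(FPKM + 1) the 3 nearest profiles are named. Alternatives were pseudocounts of 0.1 and 5, 2 filters, 3 normalizations, 2 variance models, a fit to 6 libraries, a replicate block and leaving out each library. Same-numbered libraries did not deviate together (correlations -0.0975 to 0.0355), so they were not paired. No batch is given in the labels. Tables were made with Python 3.11.15, pandas 2.3.3 and numpy 2.4.6, and plots with matplotlib 3.10.9.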

Additional observations from a re-analysis of the deposited data

How the results depend on the processing

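Under 20 alternatives each, all 7 genes kept their direction and their call in H93 against DMSO. So did EREG, HBEGF, TGFA, ERBB2 and ERBB3 in SAHA against DMSO, and AREG, EREG, HBEGF, EGFR and ERBB2 in H93 against SAHA. HBEGF ranged from 1.23 to 1.59 for H93 and from 0.92 to 1.22 for SAHA, under 1 only with a pseudocount of 5. The cause of the following changes was not tested. For AREG in SAHA against DMSO, which never passed, quantile normalization gave -0.0031, and leaving out 1 library gave -0.0060 to 0.0387.

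EGFR in SAHA against DMSO lost its call with a fixed sum per library (0.056), and at 0.067 without the trend, with the 6 libraries compared and with the replicate block (adjusted p = 0.0609). Leaving out 1 library gave 0.0534 to 0.0792. TGFA in H93 against SAHA lost it with median-ratio rescaling (0.081) and quantile normalization (0.072), and at 0.094 with the 6 libraries compared and with the replicate block (adjusted p = 0.0718). Leaving out 1 library gave 0.0853 to 0.111. The block changed no other call of the 7 genes.

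Over all genes, 2-fold calls numbered 263, 129 and 2 for H93 against DMSO, SAHA against DMSO and H93 against SAHA. They became 540, 292 and 8 with a pseudocount of 0.1, 74, 30 and 1 with a pseudocount of 5, and 156, 78 and 1 with a mean FPKM of at least 5. For H93 against SAHA they were 1 with no filter, robust moderation, no trend or the 6 libraries, and 1 to 3 when a library was left out. Absolute depth is unknown, so no counting error could be given for scarce genes such as EPGN and ERBB4.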
